A study of Mus musculus with 8 samples.

Results

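Protein-coding loci whose transcripts begin at several start sites were examined in mouse bone marrow-derived macrophages. A locus was taken where the authors' merged annotation gives it a coding-sequence identifier and at least 2 active transcription start sites. A start site counted as active when its transcripts summed to 1 or more FPKM (sequenced fragments divided by transcript length and library size) in at least 4 of the 8 libraries. A start site is the 5′ end of reference or assembled transcripts, with no other evidence of a promoter. The word promoter is used below for reference start sites. Whether assembled 5′ ends are promoters or parts of longer transcripts was not tested. Loci whose reference transcripts do not form 1 chain of overlapping transcripts were left out, because they can join separate genes. The members were thus selected on their FPKM, and these rules kept 1994 of the 31020 loci in the count table. The rule used the level of each start site over all libraries, so activity itself is not a result, and a start site could pass through 1 group alone.

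The libraries were made from C57BL/6 macrophages grown from bone marrow, 4 from cells given interleukin-4 (IL-4), a cytokine of allergic and anti-parasite responses, and 4 from untreated cells. The labels do not give the dose or duration of IL-4. Total RNA was depleted of ribosomal RNA before library preparation, so nascent and unpolyadenylated transcripts can contribute. The series calls the 4 samples of a group biological replicates, but no label says that each is from an animal of its own, and p-values here describe the spread among these samples alone.

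Many mammalian genes have more than 1 promoter. Alternative promoters give transcripts with different first exons, which can change the 5′ untranslated region, the translation start and so the N-terminus of the protein, or leave the protein as it is and place the gene under other regulatory sequences. IL-4 acts on macrophages through its receptor and the transcription factor STAT6 and brings about the programme called alternative activation. The comparison asks whether IL-4-treated cells divide the output of a locus among its start sites differently from untreated cells. In RNA from a whole culture, a change in how many cells use a start site and a change in RNA per cell cannot be told apart.

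Total counts ran from 23071022 to 27783417 per library. The 1994 loci held 36.8 to 37.7% of the counts in IL-4 libraries and 35.5 to 36.0% in untreated libraries. The replicate 4 library of each group stood apart, with 5525 counts on chromosome Y in the IL-4 one and 5808 in the untreated one, against 0 to 7 in the other 6. The files do not pair their identifiers with gene symbols, so loci are called by letters and given by their mm9 position and strand, and the cell type could not be checked against marker genes.

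Most of these loci were simple. There were 2 active start sites at 1549 loci (77.7%), 3 at 335, 4 at 85 and 5 or more at 25. In all, the loci had 4581 active start sites among 6987 annotated ones. Of the active ones, 3532 (77.1%) began a reference transcript and the others began only transcripts that the authors had assembled. At 1068 loci every active start site was in the reference.

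The active start sites of a locus lay a median of 2183 nucleotides (nt) apart from first to last, with quartiles of 407 and 20245 nt and extremes of 101 and 678915 nt. Use was unequal. With the share of a start site defined as its percentage of the FPKM of its locus, the start site in the lead held a median of 72.7% (quartiles 56.8 and 87.0%). It was the most upstream active one at 913 of 1982 loci (46.1%). The percentage expected if position played no part was not computed, so no preference is read from this. The other 12 loci were listed at 0 FPKM in at least 1 library and have no defined share there. Nearest to the activity threshold, by the FPKM of the 4th library in descending order, were start sites at 1.0012, 1.00126 and 1.00159 just inside it and at 0.998567, 0.996961 and 0.996915 just outside.

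IL-4-treated cells divided transcription among start sites differently at 349 of the 1994 loci (17.5%; limma on the log2 ratio of each start site to the rest of its locus, Benjamini-Hochberg adjusted p under 0.05). Over all 2437 loci with 2 or more active start sites the percentage was 20.9, so these loci were not called more often than the background. Of the 349, 4 (locus Z, described below, among them) have no defined share in some library, where their log2 ratio is set by the pseudocount. At the 345 called loci with defined shares, the start site with the largest share difference moved by a median of 9.47 percentage points, against 2.97 points over all 1982 loci. It moved by 10 points or more at 161 called loci and by 20 points or more at 68, and the largest difference was 73.2 points. The shares of this start site did not overlap between the groups at 319 called loci and at 479 of all 1982 (24.2%), where the background percentage was 27.9.

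A full exchange of the lead was the less common form. The start site with the highest mean share was another one in IL-4 cells than in untreated cells at 49 of the 345 called loci (14.2%), and at 142 of 1982 loci whether called or not. In what follows, the gaining start site is the one with the largest increase in mean share in IL-4 cells and the losing one that with the largest decrease. The gaining start site lay upstream at 162 of the 345 called loci (47.0%) and at 967 of all 1982 (48.8%), so neither direction along the gene was preferred by much in either set. A start site was active in 1 group alone, at 1 FPKM or more in its 4 libraries and in none of the other group, at 212 loci, of which 99 were called. Such a start site was selected through the group in which it is high and had to differ, so these calls are a description. Of the other 1782 loci, 250 (14.0%) were called, and the median largest share difference of the 249 of them with defined shares was 9.02 points. No background percentage over all loci without such a start site was computed to set beside this one. Among the loci named below, B to F, H, J, M, N, P to T, W, Y, Z, AD, AF, AG and AI have such a start site. The other 1782 loci are not free of this selection. A start site whose high group alone met the rule stays among them if any library of the other group reached 1 FPKM. Loci A, I, V, AC, AE and AJ hold examples. Without both replicate 4 libraries, which leaves 3 in each group, 141 of 1724 loci were called, against 224 of all 2130 loci tested. The part of the smaller group size in this was not tested.

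**Figure D1:**
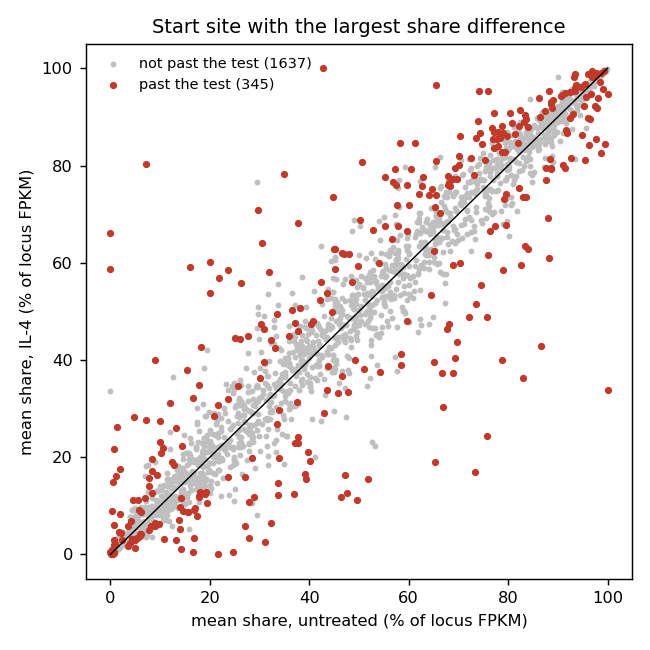
Mean share of locus FPKM of the start site with the largest share difference, in IL-4 libraries (vertical, %) against untreated libraries (horizontal, %), 1 point per locus (means of 4 libraries). The 345 loci past the test are in red, the 1637 others in grey, and the line marks equal shares. Most loci lie near the line, and the largest difference, 73.2 points, is that of locus A.

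Loci with more start sites and with start sites farther apart were called more often. The called percentage was 15.0 with 2 active start sites (233 of 1549), 21.8 with 3 (73 of 335), 35.3 with 4 (30 of 85) and 52.0 with 5 or more (13 of 25). When the gaining and losing start sites were under 500 nt apart, 78 of 643 loci were called (12.1%). At 50000 nt or more, 49 of 187 were (26.2%), and the 3 classes between lay in order at 14.4, 18.1 and 23.8%. More start sites give more tests per locus, for which the Simes p per locus allows. The same percentages over all loci tested were not computed. The counts of reads moved along with the calls too: called loci had a median of 91.1 CPM (counts scaled to the total count of the library) and the others 63.1. Calls were made at 93 of 399 loci (23.3%) above 167 CPM, the most abundant class, and at 61 of 399 (15.3%) under 24.6 CPM, the least abundant. The part of depth in these differences was not tested.

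**Figure D2:**
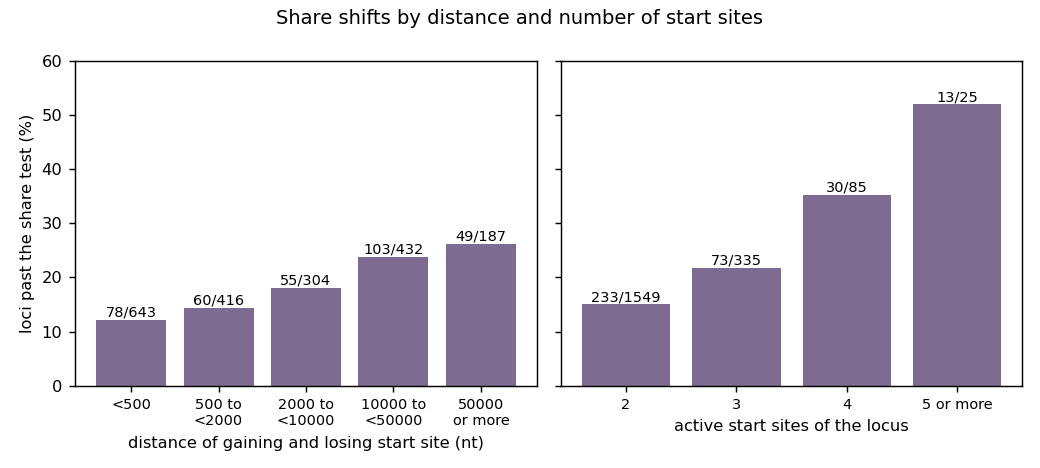
Percentage of loci past the share test (bars) by the distance between gaining and losing start site (left, nt) and by the number of active start sites (right). The numbers over the bars are called loci of all loci in the class. The percentage climbs from 12.1 to 26.2 with distance and from 15.0 to 52.0 with the number of start sites.

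Transcripts from the gaining and losing start sites often differed in more than their first exon. Their main transcripts ended within 100 nt of each other at 186 of the 345 called loci (53.9%), against 951 of 1982 (48.0%). Where the 3′ end was shared, 19.6% of loci were called, and where it was not, 15.4%. The main transcripts of both start sites carried a coding-sequence identifier at 144 called loci. At 85 of these (59.0%) the identifiers differed, so the annotated protein of the main transcript was another one. Other transcripts of the start sites were not compared here and can share an identifier. The percentage was much the same over all loci, at 518 of 870 (59.5%). Both start sites were in the reference at 187 called loci. At 69 the gaining and at 96 the losing one was an assembled start site. FPKM of overlapping transcripts are estimates that rest on the bases the transcripts do not share. At 140 called loci (40.6%) the gaining or losing start site had under 100 exonic nt outside the other active start sites, against 1044 of 1982 (52.7%).

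The levels behind the shifts fell into several kinds. At 83 of the 345 called loci the gaining start site rose and the losing one fell in FPKM. At 84 the gaining one rose while the losing one did not pass the test, and at 79 the losing one fell while the gaining one did not pass. Both rose, to different extents, at 50 loci and both fell at 44, and at 5 neither passed. Of the 249 called loci with defined shares and no start site active in 1 group alone, the gaining one rose and the losing one fell at 59, both rose at 26 and both fell at 26. Over all 4581 active start sites, 946 rose and 1049 fell (43.5% changed). The background over 13999 start sites was 46.2% changed, 23.4% rising and 22.8% falling, so these start sites were not changed more often than others. Without the 255 active in 1 group alone, 825 rose and 922 fell of 4326, and no background without such start sites was computed. The median log2 difference of the 4581 was -0.03, against -0.01 over all start sites. Which direction held more calls was not stable: without any one of the untreated replicates 2, 3 and 4, more start sites rose than fell. Start sites active in untreated cells alone could not meet the activity rule in these runs, and their part in this was not tested.

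**Figure D3:**
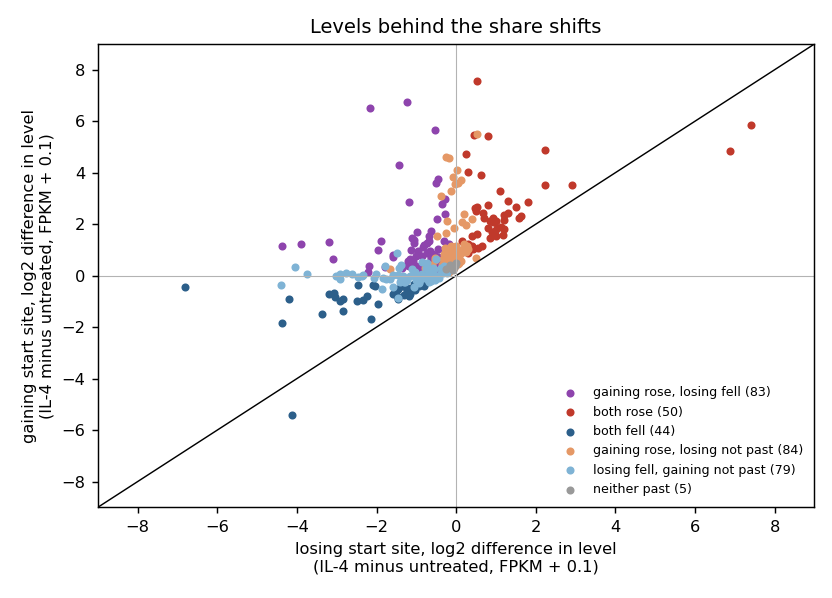
Log2 difference in level, IL-4 minus untreated on log2(FPKM + 0.1), of the gaining start site (vertical) against the losing start site (horizontal) at the 345 called loci. Colours give the 6 kinds with their numbers of loci, the grey lines mark no difference, and the diagonal marks equal change. Points lie above the diagonal by the definition of gaining and losing, except 3 at which the mean share and the log2 scale with its pseudocount differ in direction, locus Y among them.

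Reference promoters exchanged the lead at locus G (chr4:154936501-154965110, plus strand). Its 2 active start sites, 1423 nt apart, begin reference transcripts of 12 exons each with the same 3′ end and the same coding-sequence identifier. The upstream start site stood at 17.1, 15.4, 11.2 and 15.8 FPKM in the IL-4 libraries, against 58.2, 54.2, 49.8 and 57.8 FPKM in the untreated libraries. The downstream one stood at 43.4, 41.9, 46.8 and 48.4 FPKM in the IL-4 libraries, against 14.1, 17.8, 17.9 and 20.8 FPKM in the untreated libraries. The groups did not overlap at either start site. The upstream one fell (log2 difference -1.89 ± 0.12 (SE), adjusted p = 4.78e-06) and the downstream one rose (log2 difference 1.36 ± 0.11 (SE), adjusted p = 1.66e-05; limma). The upstream share was 24.4 ± 3.83% in IL-4 cells and 75.7 ± 3.31% in untreated cells (SD, n = 4 each), and the shift passed the test (adjusted p = 2.31e-05). Locus counts did not pass (edgeR, log2 fold change -0.11 ± 0.09 (SE), adjusted p = 0.302), so a count per gene does not show this exchange. The upstream start site has 64 exonic nt of its own and the downstream one 165. The call held under all other settings in which the locus was tested.

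Loci AA to AJ, described here and in the paragraphs that follow, were chosen after the values were seen, as the 2 largest non-overlapping shifts of each kind not already named. Locus AB (chrX:71638630-71700871, plus strand) exchanged its lead in favour of the upstream promoter. The start sites lie 5069 nt apart, both in the reference, and carry different coding-sequence identifiers. The upstream one had 11.1, 9.87, 10.1 and 11 FPKM in the IL-4 libraries, against 2.28, 1.82, 1.84 and 1.81 FPKM in the untreated libraries. The downstream one had 7.50, 7.85, 8.27 and 7.88 FPKM in the IL-4 libraries, against 10.2, 9.24, 9.39 and 9.34 FPKM in the untreated libraries. The upstream groups were far apart and the downstream groups were close but did not overlap. The upstream start site rose (log2 difference 2.39 ± 0.09 (SE), adjusted p = 2.99e-07) and the downstream one fell (log2 difference -0.27 ± 0.06 (SE), adjusted p = 0.00506; limma). The upstream share was 53.4 ± 2.68% in IL-4 cells and 15.9 ± 0.847% in untreated cells (SD, n = 4 each). The locus as a whole rose by a log2 fold change of 0.77 (edgeR adjusted p = 9.48e-07).

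Locus AA (chr19:4231899-4233634, plus strand) moved the other way along the gene. Its downstream start site, 539 nt from the upstream one, begins a reference transcript without a coding-sequence identifier, while the upstream transcript has one. Only 25 exonic nt belong to the downstream one alone, against 290 for the upstream one, so its FPKM rest on few bases. The downstream start site had 19.9, 23.9, 24.5 and 22.4 FPKM in the IL-4 libraries, against 1.01, 5.61, 6.96 and 2.49 FPKM in the untreated libraries. The groups did not overlap, and the untreated libraries were spread widely. The upstream start site, the coding one, fell slightly (log2 difference -0.37 ± 0.07 (SE), adjusted p = 0.00312; limma). Its share was 40.8 ± 4.30% in IL-4 cells and 84.0 ± 10.2% in untreated cells (SD, n = 4 each).

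Locus I (chr19:12535169-12576635, minus strand) has 2 reference start sites 149 nt apart whose transcripts end at different places and encode different annotated proteins. The upstream start site had 0.927, 0.312, 0.803 and 1.27 FPKM in the IL-4 libraries, against 2.91, 3.77, 3.62 and 2.78 FPKM in the untreated libraries. The downstream one had 3.30, 4.22, 3.70 and 3.10 FPKM in the IL-4 libraries, against 1.53, 1.84, 2.20 and 1.42 FPKM in the untreated libraries. Neither pair of groups overlapped. The upstream share was 18.9 ± 9.29% in IL-4 cells and 65.3 ± 2.19% in untreated cells (SD, n = 4 each), and the shift passed the test (limma adjusted p = 0.00146). Because the promoters are close and the 3′ ends differ, first exon and gene end change together here.

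Several loci had a start site that was near or under the floor of detection in untreated cells and active in IL-4 cells. Locus A (chr4:95224198-95593636, plus strand) showed the largest share difference of all. Its upstream start site begins a reference transcript of 16 exons. The other lies 353514 nt downstream, near the 3′ end of the locus, and begins only an assembled transcript of 4 exons and 493 nt with the same gene end. This internal start site had 38.4, 37.1, 35.3 and 33.0 FPKM in the IL-4 libraries, against 1.67, 0.702, 1.64 and under 0.01 FPKM in the untreated libraries. The upstream one had 7.91, 7.81, 8.48 and 9.35 FPKM in the IL-4 libraries, against 12.8, 12.6, 10.6 and 12.7 FPKM in the untreated libraries. IL-4 cells were higher at the internal start site and lower at the upstream one, without overlap. The internal share was 80.3 ± 2.29% in IL-4 cells and 7.10 ± 5.72% in untreated cells (SD, n = 4 each). Counts of the whole locus moved little (edgeR, log2 fold change 0.20 ± 0.07 (SE), adjusted p = 0.0341), and that call was lost without any one of IL-4 replicates 3 and 4 and untreated replicates 2, 3 and 4. FPKM is per length, so a share of FPKM is not a share of reads. Why the counts moved so little beside the FPKM was not tested.

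**Figure D4:**
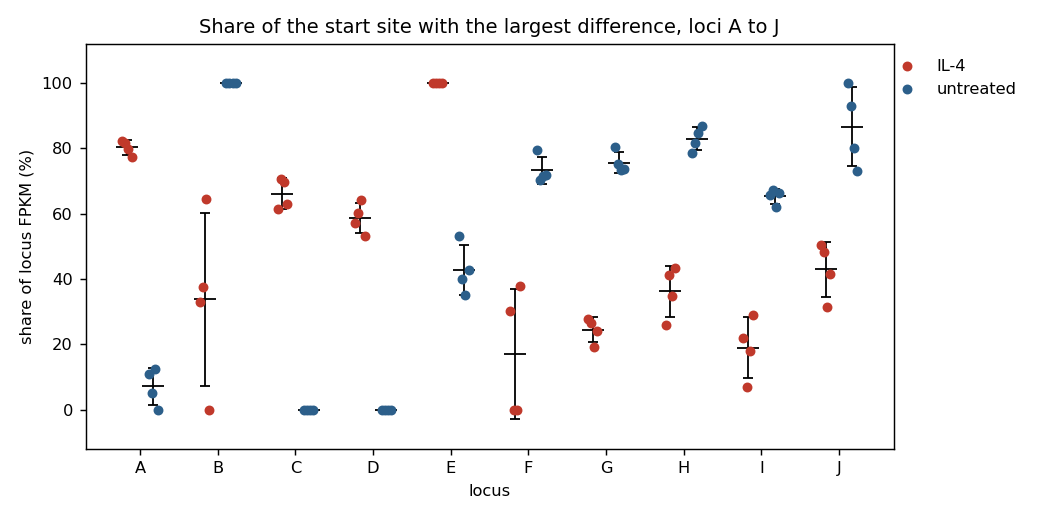
Share of locus FPKM (vertical, %) of the start site with the largest share difference at loci A to J, for the 4 IL-4 libraries (red, left of each pair) and the 4 untreated libraries (blue, right). Points are libraries, and the black marks are means with SD. The groups do not overlap at any of the 10 loci, which was a condition for naming them, and IL-4 libraries are spread widely at loci B and F.

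Locus C (chr2:125072984-125084785, plus strand) has 3 active start sites. Both upstream start sites are in the reference, with different coding-sequence identifiers, and the third begins an assembled transcript. The first had 4.36, 4.92, 4.51 and 3.46 FPKM in the IL-4 libraries, against 3.80, 2.54, 2.83 and 2.76 FPKM in the untreated libraries. The third had 15.9, 21.8, 21.9 and 15.5 FPKM in the IL-4 libraries, against under 0.01 FPKM in all 4 untreated libraries. A start site listed at almost nothing in every untreated library thus took the lead, with a share of 66.2% in IL-4 cells. It met the activity rule through the IL-4 group alone, so its difference is given with no test. The first and second rose by log2 differences of 0.52 and 1.33 (limma adjusted p = 0.0188 and 0.000705). The locus rose by a log2 fold change of 2.45 (edgeR adjusted p = 2.02e-08).

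At locus D (chr5:141200081-141237413, plus strand) the appearing start site was a reference one, the most upstream of 4, and the locus as a whole fell. This start site had 8.46, 10.2, 10.5 and 7.22 FPKM in the IL-4 libraries, against under 0.01 FPKM in all 4 untreated libraries. The assembled start site 11550 nt downstream had 1.22, 1.03, 0.738 and 0.656 FPKM in the IL-4 libraries, against 6.09, 4.45, 3.59 and 3.47 FPKM in the untreated libraries. The first appeared in every IL-4 library and the other was lower in every IL-4 library. The appearing start site held 58.7% of the locus in IL-4 cells, and the second start site, which carries the same coding-sequence identifier, fell (log2 difference -0.78 ± 0.18 (SE), adjusted p = 0.00673; limma). Locus counts fell by 0.37 on the log2 scale (edgeR adjusted p = 0.00335). The main transcripts of the gaining and losing start sites differ in their 3′ ends and in length, at 2886 nt and 10837 nt.

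Locus B (chr2:32477278-32490673, plus strand) has 2 reference start sites 2953 nt apart that share a coding-sequence identifier. The downstream one had 4.47, 5.52, 3.36 and 4.50 FPKM in the IL-4 libraries, against under 0.01 FPKM in all 4 untreated libraries. The upstream one had 2.69, 4.04, 7.16 and under 0.01 FPKM in the IL-4 libraries, against 1.88, 0.956, 0.806 and 0.921 FPKM in the untreated libraries. The downstream start site was higher in every IL-4 library, through which alone it was selected, while the upstream one varied most within the IL-4 group, where replicate 4 was near 0. Counts of the locus rose by a log2 fold change of 2.94 (edgeR adjusted p = 1.64e-05). The downstream start site has 59 exonic nt of its own. The share call had an adjusted p of 0.0186 and was lost with a pseudocount of 1 (adjusted p = 0.0699).

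Locus H (chr13:32933947-33032530, minus strand) kept its leading start site by mean share but lost most of the lead. The upstream assembled start site had 2.08, 2.91, 2.77 and 2.86 FPKM in the IL-4 libraries, against 3.54, 3.96, 4.14 and 3.58 FPKM in the untreated libraries. The most downstream one, in the reference and 89476 nt away, had 2.80, 2.02, 2.42 and 1.73 FPKM in the IL-4 libraries, against under 0.01, 0.306, under 0.01 and 0.198 FPKM in the untreated libraries. It has 44 exonic nt of its own, and it was low in every untreated library and above 1 FPKM in every IL-4 library. Between them lies another reference start site, which had 3.12, 2.13, 2.71 and 2.02 FPKM in the IL-4 libraries, against 0.871, 0.586, 0.612 and 0.350 FPKM in the untreated libraries and likewise met the activity rule through the IL-4 group alone. The share of the upstream one was 36.3 ± 7.84% in IL-4 cells and 82.9 ± 3.53% in untreated cells (SD, n = 4 each). It led in IL-4 replicates 2, 3 and 4. In IL-4 replicate 1 it had the lowest share, 25.9%, against 38.7% at the middle start site and 34.8% at the most downstream one.

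At locus J (chr18:60963356-61008626, minus strand) the gaining start site was an assembled one 33719 nt downstream of the reference promoter, with a transcript of 3 exons and the same gene end. It had 3.47, 3.68, 5.42 and 3.27 FPKM in the IL-4 libraries, against under 0.01, 0.256, 0.674 and 0.954 FPKM in the untreated libraries. The reference promoter had 3.53, 3.45, 2.50 and 2.33 FPKM in the IL-4 libraries, against 4.24, 3.36, 2.74 and 2.61 FPKM in the untreated libraries. The internal start site was higher in every IL-4 library, through which alone it was selected, and the reference one overlapped between groups. The share call is thus a description. It had a limma adjusted p of 0.0210 and was lost without untreated replicate 2 (adjusted p = 0.0561) and with a pseudocount of 0.01 (adjusted p = 0.0757).

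Other loci lost a start site in IL-4 cells. At locus E (chr18:20838622-20907330, minus strand) both start sites are in the reference, 2425 nt apart, share a coding-sequence identifier and differ in their 3′ ends. The downstream one had under 0.01 FPKM in all 4 IL-4 libraries, against 8.62, 11.9, 13.5 and 10.8 FPKM in the untreated libraries. The upstream one had 6.17, 5.62, 5.74 and 6.47 FPKM in the IL-4 libraries, against 9.82, 7.89, 7.33 and 8.06 FPKM in the untreated libraries. The downstream start site was lost from every IL-4 library and the upstream one fell (log2 difference -0.45 ± 0.10 (SE), adjusted p = 0.00483; limma), as did the locus (edgeR, log2 fold change -1.36 ± 0.07 (SE), adjusted p = 4.65e-08). The upstream main transcript is 12711 nt long and the downstream one 5808 nt. All exonic bases of the downstream start site lie within the upstream one's transcripts, so its FPKM rests on bases shared with them, and a change of gene end and a change of promoter cannot be told apart from these values.

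Locus F (chr2:32728809-32817144, minus strand) also had a start site that was lower in IL-4 cells. Unlike locus E it rose in counts (edgeR, log2 fold change 0.87 ± 0.08 (SE), adjusted p = 3.3e-06). Its reference start site has 0 exonic nt of its own and had 0.965, under 0.01, under 0.01 and 1.28 FPKM in the IL-4 libraries, against 4.15, 2.76, 2.91 and 2.83 FPKM in the untreated libraries. The assembled start site 373 nt upstream, whose main transcript is 55971 nt long against 3973 nt for the reference one, had 1.73, 2.23, 1.95 and 1.42 FPKM in the IL-4 libraries, against 0.611, 0.681, 0.753 and 0.670 FPKM in the untreated libraries. The first was lower in every IL-4 library, in 2 of them near 0, and the second was higher in every IL-4 library. The share of the reference start site was 17 ± 19.8% in IL-4 cells and 73.3 ± 4.15% in untreated cells (SD, n = 4 each).

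Locus AE (chr19:41840980-41876574, minus strand) fell as a whole and its start sites fell unequally. The reference promoter had 1.61, 1.34, 1.39 and 1.83 FPKM in the IL-4 libraries, against 7.51, 5.19, 5.55 and 4.95 FPKM in the untreated libraries. The assembled start site 27371 nt downstream, with the same gene end, had 1.29, 0.816, 0.798 and 1.27 FPKM in the IL-4 libraries, against 30.5, 24.4, 24.6 and 15.1 FPKM in the untreated libraries. Neither pair of groups overlapped, and the downstream start site fell more, with log2 differences of -4.36 downstream and -1.83 upstream (limma adjusted p = 1.6e-06 and 1.85e-05). The lead passed to the upstream promoter, whose share was 60.1 ± 3.54% in IL-4 cells and 20.1 ± 3.22% in untreated cells (SD, n = 4 each). Locus counts fell (log2 fold change -3.35 ± 0.19 (SE), adjusted p = 1.38e-07; edgeR).

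Locus AF (chr12:117643840-117702201, plus strand) kept its full-length promoter and lost a short one. The downstream start site, 46813 nt inside the locus, begins a reference transcript of 2 exons without a coding-sequence identifier, and had 0.142, 0.0410, under 0.01 and 0.387 FPKM in the IL-4 libraries, against 3.25, 3.67, 3.14 and 4.48 FPKM in the untreated libraries. The upstream one, with a transcript of 29 exons, had 3.90, 3.28, 3.45 and 3.86 FPKM in the IL-4 libraries, against 7.65, 6.84, 7.18 and 6.20 FPKM in the untreated libraries. Every IL-4 library was lower at both, and more so at the short transcript. The upstream share was 96.5 ± 4.04% in IL-4 cells and 65.4 ± 5.67% in untreated cells (SD, n = 4 each).

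At locus AJ (chr11:54336349-54512787, plus strand) the reference promoter did not pass the test and an internal assembled start site fell. The upstream promoter had 4.03, 4.71, 4.62 and 4.52 FPKM in the IL-4 libraries, against 4.09, 4.46, 4.42 and 4.26 FPKM in the untreated libraries. The assembled start site 103523 nt downstream had 0.746, 0.378, 0.697 and 1.34 FPKM in the IL-4 libraries, against 6.36, 5.98, 6.67 and 5.71 FPKM in the untreated libraries. The upstream groups overlapped (limma adjusted p = 0.614) and the internal groups were far apart (log2 difference -2.93 ± 0.28 (SE), adjusted p = 4.69e-05). Of the IL-4 libraries only replicate 4 reached 1 FPKM at the internal one, so its selection rested mainly on the untreated group. The fall of the locus in counts (log2 fold change -0.82, edgeR adjusted p = 2.03e-06) was thus accompanied by no change past the test at its first promoter. Locus AI (chr7:109018834-109051649, plus strand) had 6.31 ± 0.941 FPKM in IL-4 cells and 6.14 ± 1.34 FPKM in untreated cells (SD, n = 4 each) at its most downstream start site, with a log2 difference of -3.75 at the middle one (limma adjusted p = 0.00616). It had 0 to 7 counts per library, so its FPKM have no support in the count table.

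A further group rose as a whole with unequal start sites. At locus AC (chr8:12873827-13022750, plus strand) 2 reference start sites 34885 nt apart begin transcripts of 29 exons with the same gene end and different coding-sequence identifiers. The upstream one had 20.4, 30.2, 29.7 and 19.7 FPKM in the IL-4 libraries, against 0.485, 1.06, 0.947 and 0.553 FPKM in the untreated libraries. The downstream one had 5.79, 5.88, 6.25 and 4.70 FPKM in the IL-4 libraries, against 0.872, 1.38, 1.30 and 0.986 FPKM in the untreated libraries. Both rose without overlap, the upstream one by a log2 difference of 4.90 and the downstream one by 2.23 (limma adjusted p = 1.23e-06 and 7.3e-06). At both, the IL-4 group alone met the activity rule, and few untreated libraries reached 1 FPKM. How much of the differences follows from that selection was not tested. The upstream share was 78.4 ± 2.76% in IL-4 cells and 34.9 ± 4.58% in untreated cells (SD, n = 4 each), so the lead changed hands while the locus rose (log2 fold change 3.77 ± 0.19 (SE), adjusted p = 5.15e-08; edgeR).

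Locus X (chr5:17287508-17394777, minus strand) was abundant, at 11183 ± 941 CPM in IL-4 cells and 3242 ± 903 CPM in untreated cells (SD, n = 4 each). Its 3 active start sites all rose. The most upstream one, an assembled start of a 16-exon transcript, had 197, 213, 232 and 179 FPKM in the IL-4 libraries, against 20.1, 41.5, 38.1 and 42.3 FPKM in the untreated libraries. The second, in the reference, had 972, 1127, 1245 and 963 FPKM in the IL-4 libraries, against 144, 233, 235 and 200.1 FPKM in the untreated libraries. The third, 13909 nt downstream of the second and with the same coding-sequence identifier, had 769, 766, 856 and 856 FPKM in the IL-4 libraries, against 206, 429, 422 and 313 FPKM in the untreated libraries. All 3 were higher in every IL-4 library, and the log2 differences were 2.58, 2.42 and 1.30 in that order (limma adjusted p = 2.45e-05, 5.1e-06 and 0.00109). The third led in untreated cells and the second in IL-4 cells, and the share of the third was 38.9 ± 3.02% in IL-4 cells and 58.4 ± 2.84% in untreated cells (SD, n = 4 each). The shift had an adjusted p of 0.00130. The second start site has 7 exonic nt of its own.

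Locus AH (chr7:109358967-109398633, plus strand) has 3 reference start sites, the most downstream with a coding-sequence identifier of its own. The most downstream one had 37.8, 48.0, 47.8 and 34.7 FPKM in the IL-4 libraries, against 3.18, 5.93, 5.71 and 4.80 FPKM in the untreated libraries. The most upstream one had 6.74, 6.64, 2.59 and 6.79 FPKM in the IL-4 libraries, against 8.34, 7.72, 6.09 and 5.73 FPKM in the untreated libraries. The downstream start site was higher in every IL-4 library and the upstream one overlapped between groups. The middle one rose (log2 difference 1.34 ± 0.10 (SE), adjusted p = 1.02e-05; limma), but the lead passed to the downstream one, with a share of 53.7 ± 1.8% in IL-4 cells and 20.1 ± 4.82% in untreated cells (SD, n = 4 each). At locus AG (chr9:44494271-44543323, minus strand) the upstream of 2 start sites 13805 nt apart had 1.89 ± 0.210 FPKM in IL-4 cells and 0.379 ± 0.154 FPKM in untreated cells (SD, n = 4 each), and it took the lead, with a share of 50.7 ± 1.34% in IL-4 cells and 18.7 ± 7.36% in untreated cells (SD, n = 4 each). Locus AD (chr16:93583563-93605450, minus strand) shifted toward a downstream assembled start site, whose share was 68.2 ± 5.21% in IL-4 cells and 37.8 ± 13.6% in untreated cells (SD, n = 4 each), and was not called when only active start sites formed the rest of the locus (adjusted p = 0.23).

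Many loci changed in counts without a share shift past the test. Of the 1994 loci, 1923 passed the count filter; 526 rose and 555 fell (56.2%; edgeR, adjusted p under 0.05), against a background of 51.8% changed, 25.6% rising and 26.2% falling over 13761 loci. With the size factors of DESeq2 in edgeR the order turned, at 562 rising and 528 falling. The median log2 fold change was -0.01, against -0.02 over all loci. Share shifts were called at 259 of the 1081 changed loci (24.0%) and at 77 of the 842 others (9.14%). Of the 232 loci changed by 2-fold or more, 67 (28.9%) were called. These percentages include loci with a start site active in a single group alone, which was selected through that group and had to differ. Of the 212 such loci among all members, 99 were called. The percentages without such loci, and over all loci tested, were not computed. How much of the contrast between changed and other loci follows from that selection or from depth was not tested. Among the called loci in the count test, 131 rose, 128 fell and 77 did not pass, so a shift went with a rise about as often as with a fall.

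**Figure D5:**
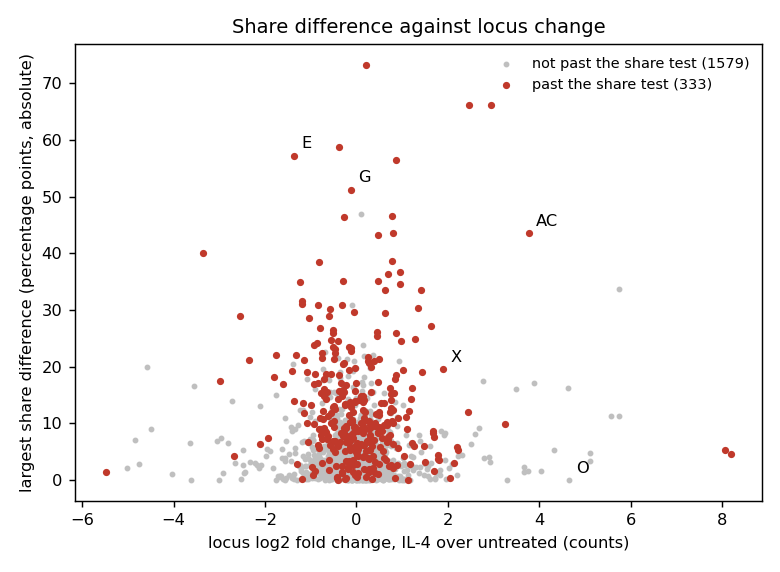
Largest share difference of a locus (vertical, absolute percentage points) against its log2 fold change in counts, IL-4 over untreated (horizontal), for the 1912 loci with both values. The 333 loci past the share test are in red and letters mark loci named in the text. Locus G lies high at nearly no change in counts, and locus O lies far right at nearly no share difference.

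Locus O (chr9:7344397-7369499, plus strand) rose at both of its promoters. It had 21810.5, 27242, 29282 and 19725 CPM in the IL-4 libraries, against 638, 1222, 1173 and 1156 CPM in the untreated libraries. The downstream reference start site had 5355, 6815, 7362 and 5057 FPKM in the IL-4 libraries, against 168, 291, 278 and 278 FPKM in the untreated libraries. The upstream one, 2977 nt away, had 24.4, 31.8, 34.2 and 22.3 FPKM in the IL-4 libraries, against 0.371, 1.24, 1.59 and 1.22 FPKM in the untreated libraries. Every IL-4 library was far above every untreated one at both start sites, and untreated replicate 1 was the lowest at both. The log2 differences were 4.67 upstream and 4.61 downstream, and the downstream share was 99.5% in IL-4 cells and 99.6% in untreated cells (limma adjusted p of the shift 0.906). With a pseudocount of 1 the shift passed, with the log2 ratio in the other direction (0.80, adjusted p = 0.000187). The upstream start site is a minor one with 41 exonic nt of its own.

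The 5 uncalled loci with the largest changes in counts, P to T, all rose, by log2 fold changes of 5.74 and 5.74 on chromosome 11, 5.57 on chromosome 16, 5.12 on chromosome 7 and 5.11 on chromosome 5. They had 7 to 101 counts in their lowest library, so untreated shares there are poorly determined. At loci P, Q, R and T every active start site met the activity rule through the IL-4 group alone, as did the upstream one at S. Their share tests are thus a description. The outcome at each of the 5 loci depended on the settings, and all 5 passed the share test with a pseudocount of 1. Locus Q (chr11:116392899-116398035, plus strand) shows this. Its most upstream reference start site had 2.24, 1.52, 2.20 and 1.69 FPKM in the IL-4 libraries, against 0.0912, under 0.01, 0.0424 and 0.114 FPKM in the untreated libraries. The second had 4.59, 3.98, 4.42 and 1.48 FPKM in the IL-4 libraries, against under 0.01 FPKM in all 4 untreated libraries. Both were higher in every IL-4 library, and the second was under 0.01 FPKM in every untreated one. The mean share of the second was 33.7% in IL-4 cells and under 0.1% in untreated cells, yet the test was not passed (adjusted p = 0.251). It was passed with pseudocounts of 0.01 and 1, without the FPKM filter, with the rest taken from active start sites, on shares without a log and with diffSplice, with adjusted p-values of 0.00108 to 0.0066. With a pseudocount of 1 the log2 ratio turned round. Locus Q is thus not a firm case of a change without a shift. Loci P and R also passed without the FPKM filter (adjusted p = 2.4e-05 and 0.00145). Without untreated replicate 1 the shift at locus S passed (adjusted p = 0.0149), and without untreated replicate 2 that at locus T did (adjusted p = 0.00836).

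The 5 most abundant loci, K to O, each kept 1 leading start site wherever shares were defined. Locus K (chr10:116714413-116729968, minus strand) fell in counts (edgeR, log2 fold change -1.04 ± 0.20 (SE), adjusted p = 0.00127). All its start sites are listed at exactly 0 FPKM in untreated replicate 4, which has 845942 counts there, so that 0 is a failed estimate and its share test (adjusted p = 0.615) says nothing. Its leading start site had 6002, 4610.2, 4789 and 8260.3 FPKM in the IL-4 libraries, against 14443, 10822, 9823 and 0 FPKM in the untreated libraries.

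Locus L (chr10:59738875-59765348, plus strand) rose (log2 fold change 0.89 ± 0.11 (SE), adjusted p = 3.47e-05; edgeR) through its leading promoter, which had 5705, 5811, 5391 and 5733 FPKM in the IL-4 libraries, against 3698, 2936, 2968 and 2661 FPKM in the untreated libraries. A minor reference promoter 6833 nt downstream had 76.5, 55.7, 53.2 and 97.3 FPKM in the IL-4 libraries, against 89.7, 164, 129 and 91 FPKM in the untreated libraries. The leading one was higher in every IL-4 library and the minor one overlapped between groups while passing the test (log2 difference -0.74 ± 0.25 (SE), adjusted p = 0.0356; limma). The leading share was 98.7 ± 0.334% in IL-4 cells and 96.2 ± 1.25% in untreated cells (SD, n = 4 each). At loci M (chr6:48983071-49038130, plus strand) and N (chr7:149561821-149585774, minus strand) the called shifts were between start sites that lead by far and ones with under 1% of the locus. The leading start site of locus M had a share of 99.1% in IL-4 cells and 98.6% in untreated cells, and the call was lost without both replicate 4 libraries. On shares without a log neither locus passed (adjusted p = 0.437 at M and 0.982 at N). At locus N the minor upstream start site had 0.615 ± 0.0509 FPKM in IL-4 cells and 1.40 ± 0.159 FPKM in untreated cells (SD, n = 4 each), and the call was also lost with a pseudocount of 1 (adjusted p = 0.628) and without IL-4 replicate 1 (adjusted p = 0.0513). That start site met the activity rule through the untreated group alone.

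The called loci with the most active start sites divided their output finely. Locus U (chr15:75998234-76073925, minus strand) has 8 active start sites, all in the reference, and its counts did not pass the test (edgeR, log2 fold change 0.11 ± 0.20 (SE), adjusted p = 0.677). The most upstream one had 5.13, 5.23, 5.41 and 4.79 FPKM in the IL-4 libraries, against 9.60, 7.05, 6.67 and 8.34 FPKM in the untreated libraries. The sixth, 43615 nt downstream, had 6.80, 5.60, 4.77 and 3.73 FPKM in the IL-4 libraries, against 4.21, 3.46, 3.10 and 2.76 FPKM in the untreated libraries. The first was lower in every IL-4 library and the sixth overlapped between groups. Their shares were 12.9% in IL-4 cells and 19.2% in untreated cells for the first, and 12.8% in IL-4 cells and 8.22% in untreated cells for the sixth, and no mean share of the 8 exceeded 23.7%. The call was lost without both replicate 4 libraries.

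Locus V (chr4:123024507-123361603, minus strand) also has 8. Its most upstream start site, of a transcript of 98 exons, had 10.8, 13.2, 12.6 and 14.1 FPKM in the IL-4 libraries, against 13.8, 16.6, 21.6 and 18.9 FPKM in the untreated libraries. The most downstream one, 298674 nt away, had 2.39, 2.48, 2.00 and 2.89 FPKM in the IL-4 libraries, against 1.15, under 0.01, under 0.01 and under 0.01 FPKM in the untreated libraries. The downstream one was higher in every IL-4 library, and the upstream groups overlapped. With 0 exonic nt of its own, the downstream one has FPKM that rest on shared bases. The shift had an adjusted p of 0.0364 (limma) and was lost without any single IL-4 library or without untreated replicate 2 or 4, with adjusted p-values of 0.0698 to 0.101. Locus W (chr9:107877751-107951119, plus strand) has 7, of which the second fell most in share. That start site had 8.50, 9.07, 9.69 and 10.2 FPKM in the IL-4 libraries, against 28.9, 23.2, 22.6 and 29.1 FPKM in the untreated libraries. The fifth, 27081 nt downstream, had 14.6, 13.3, 13.9 and 15.5 FPKM in the IL-4 libraries, against 24.2, 20.3, 19.9 and 18.7 FPKM in the untreated libraries. Both fell, the second more (log2 difference -1.46 ± 0.10 (SE), adjusted p = 7.3e-06) than the other (log2 difference -0.53 ± 0.09 (SE), adjusted p = 0.00117; limma), and that one took the lead with a share of 44.1 ± 0.871% in IL-4 cells and 32.3 ± 2.78% in untreated cells (SD, n = 4 each). The shift at locus W (limma adjusted p = 0.0121) was lost without both replicate 4 libraries (adjusted p = 0.0541), with diffSplice (0.0714) and with a block for the replicate number (0.0655).

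Some named loci showed how low levels limit a share. Locus Y (chr3:96085957-96098013, minus strand) fell (log2 fold change -5.47 ± 0.18 (SE), adjusted p = 3.95e-09; edgeR), and its leading start site had 1.40, 1.26, 1.35 and 2.11 FPKM in the IL-4 libraries, against 66.6, 64.7, 60.1 and 83.6 FPKM in the untreated libraries. The upstream one, 121 nt away, had 0.0701, under 0.01, under 0.01 and 0.0464 FPKM in the IL-4 libraries, against 1.21, 2.56, 2.06 and 2.93 FPKM in the untreated libraries. Every IL-4 library was lower at both, and the upstream one met the activity rule through the untreated group alone. The leading share was 98.3% in IL-4 cells and 96.9% in untreated cells. The log2 ratio with a pseudocount of 0.1 gave the opposite direction (-1.27, limma adjusted p = 0.0113), and with a pseudocount of 0.01 or on shares without a log the shift did not pass. Locus Z (chr14:51868686-51876313, minus strand) had 2074, 2205, 2453 and 2215 FPKM in the IL-4 libraries, against 0 FPKM in all 4 untreated libraries at its reference start site, and the other start site was likewise listed at 0 in all untreated libraries, so no share is defined there. The count table gives locus Z 0 to 2 counts per library. It is among the 349 calls, but its ratio in the untreated libraries is set by the pseudocount alone, so that call says nothing of a shift.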

How the data were processed

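RNA-seq libraries of 4 IL-4-treated and 4 untreated macrophage samples were analysed. The submitters' processing notes name CASAVA 1.8.2, TopHat2 2.0.9, Cufflinks 2.1.1, HTSeq and the build mm9. Their settings, and how strand was handled, are not given in the sources used here. Deposited by the authors were counts of reads per merged locus, FPKM for 89208 transcripts, and a merged annotation of 89219 transcripts. The deposited FPKM are model estimates with unknown depth, and an exact 0 can be a failed estimate. Each value column carries a library's code, and 0 columns were unassigned.

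FPKM were summed by the annotation's start-site identifier. Shares were tested with limma 3.58.1 in R 4.3.3 on log2((start site + 0.1)/(rest of locus + 0.1)), with a variance trend, a Simes p per locus and Benjamini-Hochberg adjustment over 2437 loci. Start-site levels were tested with limma on log2(FPKM + 0.1) over 13999 start sites, a scale that understates changes of low start sites. Locus counts were tested with edgeR 4.0.16 (TMM factors, default filter, quasi-likelihood, two-sided) over 13761 loci. The threshold was an adjusted p of 0.05. The deviations of same-numbered libraries correlated at 0.39, 0.148, 0.225 and 0.177 in locus counts. Differently numbered ones ran from -0.267 to 0.259, the highest being IL-4 replicate 2 with untreated replicate 3. Pairing by number is thus not settled by these values, and the main fits carry no block. The main fits were tested on simulated data, and no figures from these tests are given here.

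Loci named are the 10 largest non-overlapping share shifts, the 8 largest exchanges of the lead, the 5 most counted, the 5 largest locus changes without a shift, the 3 called loci with the most start sites, members described elsewhere for this series, and the 10 added after the values were seen. The loci and lists were chosen with earlier results of these data known. Gene lists could not be used without symbols. Alternatives included other pseudocounts, filters, start-site definitions, DESeq2 1.42.0 and left-out libraries.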

Additional observations from a re-analysis of the deposited data

Results flagged for a closer look

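In 140 groups of 4 libraries at the named loci, locus CPM and the share of the start site with the largest difference were searched for a library far from the other 3 (Dixon's test at its 95% critical value). There were 13 such libraries, and chance alone flags about 1 group in 20.

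In IL-4 cells, locus CPM stood apart 4 times. Locus J had 85.9 CPM in replicate 4, against 114 to 117 in the others, and locus Q had 17.6 CPM in replicate 4, against 28.6 to 29.1. Locus G had 28 CPM in replicate 3, against 29.7 to 29.98, and locus I had 16.2 CPM in replicate 2, against 14.5 to 14.7.

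In untreated cells, replicate 1 stood apart at 4 loci. It had 5.89 CPM at locus B (others 2.69 to 3.07), 638 CPM at locus O (1156 to 1222), 18200 CPM at locus N (13800 to 14400) and 255 CPM at locus W (219 to 224). Replicate 4 had 10.6 CPM at locus H (11 to 11.1).

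Shares stood apart at 4 loci. In IL-4 replicate 4 the share was 7.44% at locus S (others 9.15 to 9.25%) and 60.4% at locus AD (70.1 to 71.6%). In untreated cells it was 76.8% in replicate 1 at locus AB (79.2 to 79.5%) and 46.0% in replicate 3 at locus AG (72.7 to 75.7%).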

How the results depend on the processing

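The number of loci called for a share shift, 349, moved by over 1.5 times under 4 settings. It was 142 of 529 loci when activity asked for 5 FPKM, 1208 of 7273 without a filter on FPKM, 219 of 1292 with reference start sites alone, and 141 of 1724 without both replicate 4 libraries. Over all loci tested, the same settings gave 243 of 742, 1462 of 8331, 361 of 1676 and 224 of 2130. In each the set of loci or libraries tested is another one by construction. It ranged from 236 to 328 when single libraries were left out, where changed start sites ranged from 1639 to 1960 and changed loci from 975 to 1191. There, too, 4 libraries at 1 FPKM were asked for, so start sites active in the shortened group alone dropped out. The other settings, including 298 calls with loci holding an active start site under 0.1 FPKM left out (chosen after seeing the data), kept all 3 counts within 1.5 times.

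Among start-site levels, same-numbered libraries of the groups did not all deviate together (r = 0.155, -0.0726, 0.138 and 0.119), so the numbers were not taken as pairs for FPKM either. With the replicate block the counts were 282 share shifts, 2122 start sites and 1235 loci, and the shifts at V, W and Y no longer passed (adjusted p = 0.0913, 0.0655 and 0.0642).

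Across the named loci, the log2 share ratio kept its direction and side of the threshold in 527 of its recomputations, no longer passed in 24, newly passed in 13 and turned round in 11. With a pseudocount of 0.01 it turned at loci P (0.035), R (-0.84), S (0.61) and Y (0.86), with a pseudocount of 1 at O (0.80) and Q (-0.52), both of which then passed, and without a log at R (-11.3 points), S (3.36) and Y (1.39). With 1 library left out, the ratio ran from -0.21 to 0.16 at O and from -0.17 to 0.19 at R. The cause was not tested. For locus fold changes 408 kept both, 33 no longer passed, all at loci A, I, N and V, and that of U, from -0.047 to 0.29 with 1 library left out, turned round once.

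FPKM carry no depth per start site, which limits shares at low levels most.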
